A study of Mus musculus with 6 samples.

Results

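The cytosolic and mitochondrial heat shock chaperones examined here are Hsp90ab1, Hsp90aa1, Hspa8, Hspa1a, Hspa1b, Hsph1, Dnajb1, Hspd1 and Hspe1, along with Hsf1, the heat shock factor that switches many of them on. They were chosen by gene symbol, with the lower Hsp90ab1 level of homozygous mice already known, and are 10 of the 47719 genes listed for each mouse. RNA was sequenced from the prostates of 6 mice of the strain B6.129S4-Trp53tm3.1Tyj/J, with 2 mice in each of 3 Trp53 genotypes. Wildtype mice 39 and 41 were Trp53+/+, heterozygous mice 37 and 40 were Trp53R270H/+, and homozygous mice 47 and 49 were Trp53R270H/R270H, where the numbers are those of the animals. R270H is a missense change in the DNA-binding domain of p53, and it was carried in the germline, so every cell type of the gland had the same genotype. All mice, wildtype ones included, had been irradiated with 5 Gy over the whole body at an age of about 3 months, and their prostates were taken after 6 h. No unirradiated mouse and no heat-shocked mouse enters the comparison, and the labels name no litter or sequencing batch.

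Chaperones bind proteins that are not yet folded, or that have lost their fold, and use ATP to help them reach or regain their shape. In the cytosol, newly made proteins meet the Hsp70 system first, in which a J-domain partner delivers the client and an exchange factor releases it, and many kinases, receptors and transcription factors then pass to Hsp90, which is also known to stabilise mutant p53 proteins. Hsp60 and its lid Hsp10 do this work as a barrel inside mitochondria, and Hsf1, held back by chaperones in resting cells, binds repeated nGAAn units in DNA and raises transcription of the inducible chaperone genes when proteins unfold. The question was whether the lower Hsp90ab1 level of homozygous mice was shared by its paralog, by the Hsp70 and Hsp60 systems and by the factor that controls them.

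Values are FPKM, fragments per kilobase of transcript scaled to the number of mapped fragments, which are corrected for gene length and can be compared between genes. The FPKM summed to between 518671 and 636407 in the 6 mice, between 13452 and 13827 genes reached 1 FPKM, and the numbers of fragments, read from the steps between the lowest values, lay between 0.787 and 1.075 times that of wildtype mouse 39. Canonical p53 target genes, which check the genotype labels, summed to 531 and 501 FPKM in wildtype, 253 and 254 in heterozygous mice and, in homozygous mice, 113 and 113. In homozygous mice 7 of 7 fell (adjusted p under 0.05 by limma, the linear model used throughout), as did 36 of the 13818 tested genes. This list, like the others, was chosen with earlier results of these data known, so the check is not independent of those results. Markers of prostate epithelium were present in every mouse, with Krt8 at 134 to 189 FPKM, but homozygous mouse 47 stood apart. Its Pbsn (probasin) was 257 FPKM against 7329 to 11512 in the other mice. Its Svs2, Svs4 and Svs5, genes of seminal vesicle secretion, were listed at 0 while its Svs6 was 26147 FPKM, and homozygous mouse 49 also listed Svs2 at 0. Of 9 secretory epithelium markers 8 were above 0 in all mice, Sbp being listed at 0 in mice 39, 40, 47 and 49, and their sum was 54634 to 68986 FPKM in wildtype, 40391 to 61986 in heterozygous and 32758 to 36245 in homozygous mice. An entry of exactly 0 can be a failed estimate, and without Sbp the sum was 68986 and 35048 FPKM in wildtype mice 39 and 41, 37212 and 40391 in heterozygous mice 37 and 40 and 36245 and 32758 in homozygous mice 47 and 49, so that wildtype and homozygous mice overlapped. The 11 skeletal muscle markers, all above 0 in every mouse, summed to 1750 to 2561 FPKM in wildtype, 4877 to 5125 in heterozygous and 5220 to 6048 in homozygous mice. Wildtype mouse 39 stood apart as well, in the sum of 8 seminal vesicle markers. It was 3493 FPKM there and 49411 in wildtype mouse 41, 55747 to 57066 in heterozygous and 35209 to 64608 in homozygous mice. Sums of 5 adipocyte markers were 209 to 270 FPKM in wildtype, 222 to 292 in heterozygous and 347 to 410 in homozygous mice. The 8 leukocyte markers summed to 59.9 FPKM in mouse 47 and to 97.3 to 169 in the other mice. The part of these differences in the results below was not tested, and in whole tissue fewer cells of a type and less RNA per cell cannot be told apart.

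All 10 genes were well above the limit of 1 FPKM on the mean that was set for testing, and their order of level was Hsp90ab1, Hspa8, Hspe1, Hsp90aa1, Hspd1, Hsph1, Dnajb1, Hsf1, Hspa1b and Hspa1a. Mean levels over the 6 mice ran from 617 FPKM for Hsp90ab1 and 298 FPKM for Hspa8 to 13.7 FPKM for Hspa1b and 5.04 FPKM for Hspa1a. The constitutive cytosolic chaperones were therefore far more abundant than the classically heat-inducible ones. Between neighbours in this order, the ranges over mice overlapped for Hspe1 and Hsp90aa1, Hsp90aa1 and Hspd1, Hsph1 and Dnajb1, Dnajb1 and Hsf1, and Hsf1 and Hspa1b. Within each of the 6 mice, Hspe1 was nevertheless above Hsp90aa1, and Hsp90aa1 above Hspd1. The order of Hsph1 and Dnajb1 held in only 4 of 6 mice, as did that of Hsf1 and Hspa1b.

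**Figure D1:**
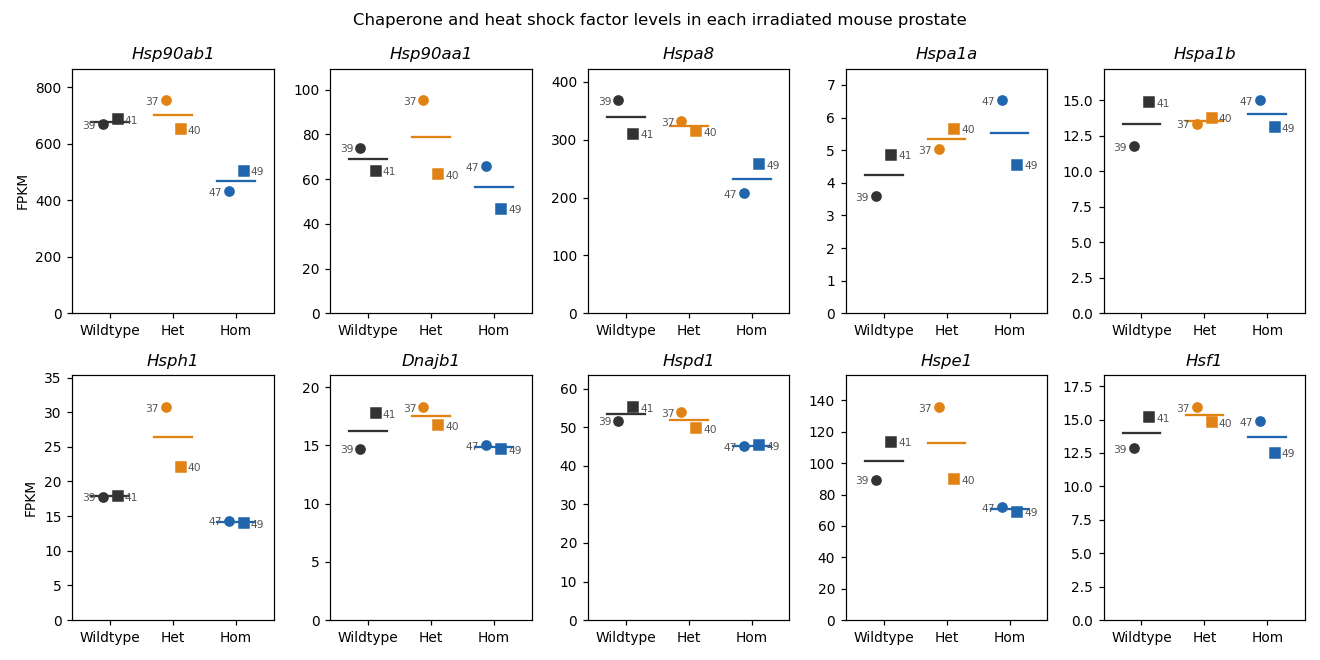
FPKM of each gene (vertical axis, linear and starting at 0) in each mouse, with the animal's number beside its point and the mean of the 2 mice of a genotype as a bar. Het is heterozygous and Hom homozygous. Both homozygous points lie below both wildtype points for Hsp90ab1, Hspa8, Hsph1, Hspd1 and Hspe1. No such split is shown by Hsp90aa1, Hspa1a, Hspa1b, Dnajb1 and Hsf1.

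Hsp90ab1, the constitutive cytosolic Hsp90, and Hspa8, the constitutive Hsp70 known as Hsc70, were at 0.690 and 0.686 times the wildtype level in homozygous mice, and Hspe1, the mitochondrial Hsp10, was at 0.699 times. Hsph1, Hsp90aa1 and Hspd1 were at 0.793 to 0.846 times the wildtype level, Dnajb1 and Hsf1 at 0.918 and 0.976 times, and the inducible Hspa1a and Hspa1b at 1.30 and 1.06 times. None of these differences passed the test. Among the 10 genes 0 had an adjusted p-value under 0.05 in any of the 3 comparisons or in the F-test across genotypes, against 53 of the 13818 tested genes (0.384%) for homozygous against wildtype, 0 (0%) for heterozygous against wildtype, 2 (0.0145%) for homozygous against heterozygous and 14 (0.101%) in the F-test of limma. At an unadjusted p-value under 0.05 there were 2 lower genes in homozygous against wildtype mice, Hsp90ab1 and Hspa8, where 9.32% of tested genes were lower by this rule. Neither stayed under that value after quantile normalization, without mouse 47 or without wildtype mouse 39, and leaving out mouse 37, 40 or 41 for Hsp90ab1 and mouse 40 for Hspa8 had the same outcome.

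In homozygous mice 5 of 10 genes had both values below both wildtype values, and 28.7% of tested genes did so. In the opposite direction 0 of 10 did, against 21.3% of tested genes. With 10 genes, these shares are described and not tested. Hsp90ab1 is among the 5 and was known to be lower before the genes were chosen, so it adds nothing on whether its fall was shared. The other members of the 5 were Hspa8, Hsph1, Hspd1 and Hspe1. The other counts of lower genes in homozygous mice, the F-test count, the medians and the sum of the 10 genes include Hsp90ab1 too. The median log2 difference of the 10 genes from wildtype was -0.28 in homozygous mice, with 8 of 10 negative, and 0.12 in heterozygous mice, where the medians of all tested genes were -0.04 and -0.01. The median of the 10 genes in homozygous mice was -0.18 without mouse 49 and -0.14 after quantile normalization, with 7 of 10 negative in both, and that in heterozygous mice was 0.02 without wildtype mouse 39 and turned to -0.0039 without mouse 37. With homozygous mouse 47 left out, 8 of 10 genes lay below both wildtype values in the remaining mouse 49, where 41.2% of tested genes did. With mouse 49 left out, 5 of 10 did so in mouse 47, against 42.5%, and Hspa1a and Hspa1b lay above both wildtype values, against 34.2% of tested genes.

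**Figure D2:**
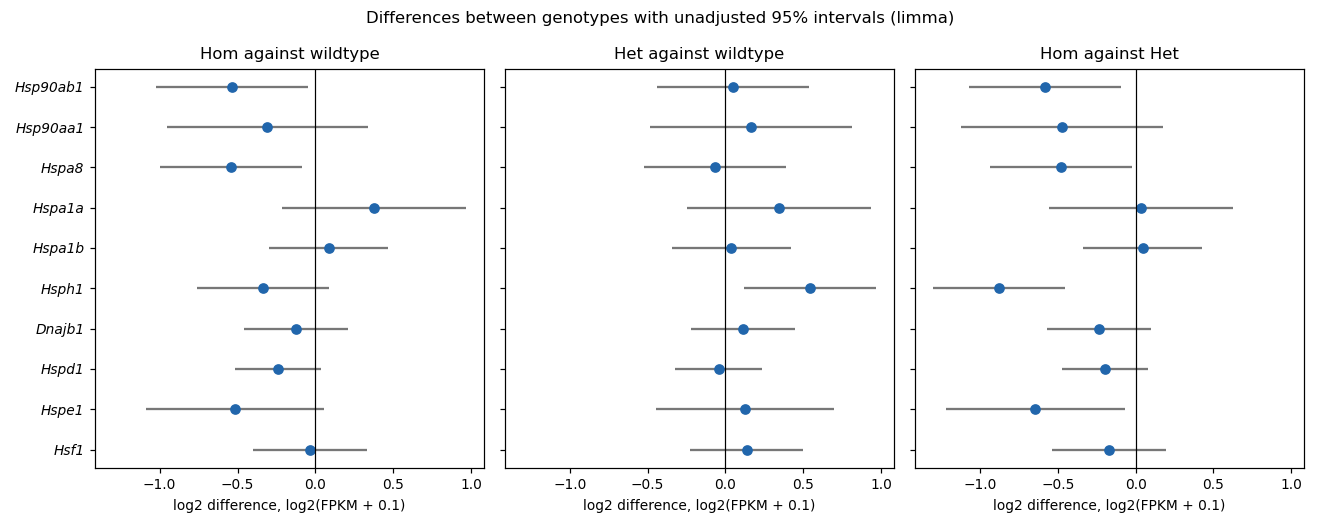
Difference between genotypes on the log2(FPKM + 0.1) scale for each gene (points) with its 95% interval from limma, not adjusted for the number of genes (lines). In homozygous against wildtype mice the intervals of Hsp90ab1 and Hspa8 lie below 0, and in heterozygous against wildtype mice that of Hsph1 lies above it.

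Hsp90ab1 (ENSMUSG00000023944) lies on the minus strand at chr17:45567775-45573271 of GRCm38 and has 11 exons. Its level was 669 and 687 FPKM in wildtype and 753 and 652 in heterozygous mice, compared with 433 and 505 in homozygous mice. Both homozygous values were the lowest of the 6, and the heterozygous values lay on either side of the wildtype ones. The log2 difference from wildtype was -0.54 in homozygous mice (standard error 0.20, 95% interval -1.02 to -0.05, adjusted p = 0.250, limma) and 0.05 in heterozygous mice (standard error 0.20, 95% interval -0.44 to 0.54, adjusted p = 0.983, limma). Without mouse 47 the difference in homozygous mice was -0.42 and without mouse 49 it was -0.65. Of its 2421 stretches of 100 bases 0 occur in a transcript of another gene, as is also the case for Hsph1, Dnajb1 and Hsf1. Only exact matches to annotated transcripts were looked for, so near copies were not examined.

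Hsp90aa1 (ENSMUSG00000021270, chr12:110690605-110702728, minus strand), the stress-inducible paralog, shares 76.6% of aligned coding bases with Hsp90ab1. It was measured at 74.1 and 63.8 FPKM in wildtype, 95.2 and 62.3 in heterozygous mice and, in homozygous mice, 65.8 and 46.8. The genotypes overlapped, because homozygous mouse 47 lay between the wildtype mice. Its difference in homozygous mice, -0.31 on the log2 scale (95% interval -0.96 to 0.34, adjusted p = 0.564, limma), therefore spans both 0 and the value of Hsp90ab1. Left-out mice moved it from -0.06 without mouse 49 to -0.55 without mouse 47. Of its stretches of 100 bases 47.5% occur in transcripts of 3 other genes, most of them in the transcribed processed pseudogene Gm12346, so its value is less certain than that of Hsp90ab1.

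The balance of the paralogs within a mouse, which does not depend on how libraries were scaled, was 9.04 and 10.8 parts of Hsp90ab1 to 1 of Hsp90aa1 in wildtype and 7.91 and 10.5 in heterozygous mice, compared with 6.59 and 10.8 in homozygous mice. Each genotype had a mouse above 10, and the genotypes overlapped. The log2 ratio in homozygous minus that in wildtype mice was -0.23, and the sign turned without mouse 47, to 0.13. Across the 3 genotypes the log2 ratio gave p = 0.867 (exact permutation test over the 15 ways of pairing the mice). The smallest p-value that this test can give is 0.0667. A difference between Hsp90ab1 and Hsp90aa1 in this respect was thus not detectable with 2 mice per genotype.

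**Figure D3:**
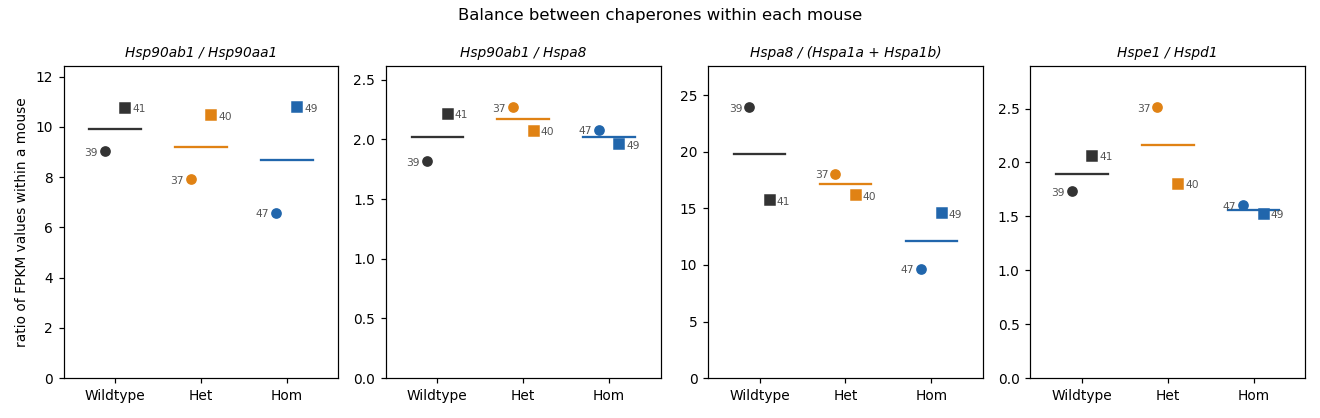
Ratios of FPKM values within each mouse (vertical axes, linear and starting at 0), with animal numbers beside the points and the mean of each genotype as a bar. Hsp90ab1 kept to between 1.82 and 2.27 times Hspa8 in all 6 mice, whereas the ratio of Hspa8 to the sum of Hspa1a and Hspa1b ran from 9.66 in mouse 47 to 24.0 in mouse 39.

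Hspa8 (ENSMUSG00000015656, chr9:40800984-40810087, plus strand, 9 exons) takes part in the folding of new proteins, in clathrin uncoating and in chaperone-mediated autophagy. It was at 368 and 310 FPKM in wildtype, 332 and 315 in heterozygous mice and, in homozygous mice, 208 and 258. Both homozygous mice were below the other 4. The log2 difference from wildtype was -0.54 in homozygous mice (standard error 0.18, 95% interval -1.0 to -0.09, adjusted p = 0.228, limma) and -0.06 in heterozygous mice (adjusted p = 0.973, limma). The genotypes overlapped in the ratio of Hsp90ab1 to Hspa8, with 1.82 and 2.22 parts of Hsp90ab1 to 1 of Hspa8 in wildtype and 2.27 and 2.07 in heterozygous mice, compared with 2.08 and 1.96 in homozygous mice (exact permutation test, p = 0.733). Part of the Hspa8 value is uncertain, because 62.8% of its stretches of 100 bases also occur in transcripts of 7 other genes, above all the processed pseudogene Gm15459 with 58.5%, and how the authors' counting divided such fragments is not given in the sources used here.

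Hspa1a and Hspa1b are the heat-inducible Hsp70 genes. They are single-exon neighbours on the minus strand of chromosome 17, separated by 9951 bases, and 1918 of 1926 aligned coding bases (99.6%) are identical. They also share their promoter sequence almost letter for letter. The 250 bases before each start site, from RefSeq on GRCm38.p6, are shown here because the likeness of the pair reaches beyond the coding sequence. They differ at 3 positions. Capitals mark GAANNTTC, which is a pair of inverted Hsf1 units and reads the same on both strands.
Hspa1a, chr17:34972157-34972406, minus strand: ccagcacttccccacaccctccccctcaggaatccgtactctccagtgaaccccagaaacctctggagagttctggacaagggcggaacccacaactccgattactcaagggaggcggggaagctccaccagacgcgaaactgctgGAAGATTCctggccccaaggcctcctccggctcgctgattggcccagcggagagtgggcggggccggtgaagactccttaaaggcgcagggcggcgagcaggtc
Hspa1b, chr17:34959239-34959488, minus strand: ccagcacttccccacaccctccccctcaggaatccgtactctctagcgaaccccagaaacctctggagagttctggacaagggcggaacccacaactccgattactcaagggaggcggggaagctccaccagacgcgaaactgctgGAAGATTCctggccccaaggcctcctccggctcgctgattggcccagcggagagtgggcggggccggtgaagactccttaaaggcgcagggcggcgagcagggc
The match begins at base -104 in both, counted from the start site. GAANNTTC occurs in 7.89% of the 32544 RefSeq promoter windows of 300 bases, so the match is a description of the sequence and says nothing of binding in these prostates.

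Hspa1a (ENSMUSG00000091971) was at 3.60 and 4.87 FPKM in wildtype, 5.02 and 5.65 in heterozygous mice and, in homozygous mice, 6.52 and 4.56. Hspa1b (ENSMUSG00000090877) was at 11.8 and 14.9 FPKM in wildtype and 13.4 and 13.8 in heterozygous mice, compared with 15 and 13.1 in homozygous mice. Homozygous and wildtype values overlapped for both genes, and only the heterozygous values of Hspa1a were both above wildtype. Differences between homozygous and wildtype mice were 0.37 for Hspa1a (95% interval -0.22 to 0.96, adjusted p = 0.452, limma) and 0.08 for Hspa1b (95% interval -0.30 to 0.47, adjusted p = 0.795, limma), and the latter turned to -0.01 without mouse 47. The difference of Hspa1a was 0.12 without mouse 47, 0.16 without wildtype mouse 39, 0.59 without wildtype mouse 41 and 0.63 without mouse 49. Because 47.1% of the stretches of Hspa1a occur in Hspa1b and 49.9% the other way, the sum of both is the safer value, and it was 15.4 and 19.7 FPKM in wildtype, 18.4 and 19.5 in heterozygous mice and, in homozygous mice, 21.5 and 17.7.

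Hspa8 was 24.0 and 15.7 times this sum in wildtype, 18.1 and 16.2 times in heterozygous mice and, in homozygous mice, 9.66 and 14.6 times. Both homozygous ratios were the lowest of the 6 (exact permutation test across the 3 genotypes, p = 0.333). In neither homozygous mouse was the inducible Hsp70 RNA below the lower wildtype mouse, whereas Hspa8 was below both wildtype mice in each.

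Hsph1 (ENSMUSG00000029657, chr5:149614287-149636376, minus strand, 18 exons) encodes Hsp110, an exchange factor that frees ADP from Hsp70 and helps it to pull apart aggregates. It was at 17.8 and 17.9 FPKM in wildtype and 30.7 and 22.2 in heterozygous mice, compared with 14.3 and 14.0 in homozygous mice. Alone among the 10 genes, it was above wildtype in both heterozygous mice and below wildtype in both homozygous mice. The log2 difference was 0.54 in heterozygous (95% interval 0.12 to 0.97, adjusted p = 0.582, limma) and -0.33 in homozygous mice (95% interval -0.76 to 0.09, adjusted p = 0.361, limma), and -0.88 between homozygous and heterozygous mice (standard error 0.17, 95% interval -1.30 to -0.45, adjusted p = 0.707, limma). The difference of heterozygous from wildtype mice was 0.31 without mouse 37 and 0.78 without mouse 40. None of its 3703 stretches of 100 bases occurs in an annotated transcript of another gene.
The promoter of Hsph1 is shown because this gene had the largest difference between genotypes of the 10, with capitals marking TTCNNGAA, the tail-to-tail arrangement of Hsf1 units.
Hsph1, chr5:149636337-149636586, minus strand: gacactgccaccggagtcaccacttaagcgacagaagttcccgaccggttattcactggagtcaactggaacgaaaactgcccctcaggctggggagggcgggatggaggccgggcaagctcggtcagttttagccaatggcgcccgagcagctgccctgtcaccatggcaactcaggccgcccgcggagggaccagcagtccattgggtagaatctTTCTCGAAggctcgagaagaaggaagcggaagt
The match starts at base -33. Just past the start, TTCNNGAA at base 36 overlaps GAANNTTC at base 41, and together they make a row of 3 alternating units. TTCNNGAA occurs in 8.55% of promoter windows and such a row, GAANNTTCNNGAA on either strand, in 0.608%.

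Dnajb1 (ENSMUSG00000005483, chr8:83608193-83612653, plus strand, 3 exons) encodes Hsp40, the J-domain partner that hands clients to Hsp70. It was at 14.7 and 17.8 FPKM in wildtype, 18.3 and 16.8 in heterozygous mice and, in homozygous mice, 15 and 14.7. Wildtype mouse 39 was as low as the homozygous mice, so these genotypes overlapped, whereas both homozygous values were below both heterozygous ones. The log2 difference from wildtype was -0.12 in homozygous (95% interval -0.46 to 0.21, adjusted p = 0.653, limma) and 0.11 in heterozygous mice (adjusted p = 0.938, limma). No match to either paired motif was found in its 2 promoter windows.

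Hspd1 (ENSMUSG00000025980, chr1:55077835-55088243, minus strand, 12 exons) encodes Hsp60, which forms the mitochondrial folding barrel, and Hspe1 (ENSMUSG00000073676, chr1:55088132-55091307, plus strand, 4 exons) encodes its lid Hsp10. The genes lie head to head and overlap at their 5' ends. RefSeq gives Hspd1 a start at base 95 and another at base -216, counted from the start of Hspe1. The stretch of 215 bases between the latter and the start of Hspe1 is shown, read on the strand of Hspe1, because both genes had lower values in both homozygous mice. Capitals mark overlapping matches to the paired motifs.
Hspe1 and Hspd1, chr1:55087933-55088147, plus strand: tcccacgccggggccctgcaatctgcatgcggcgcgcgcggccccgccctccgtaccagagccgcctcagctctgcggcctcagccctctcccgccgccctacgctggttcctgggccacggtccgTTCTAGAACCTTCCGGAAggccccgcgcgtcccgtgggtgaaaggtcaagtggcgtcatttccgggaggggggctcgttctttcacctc
The run in capitals begins at base -89 from the start of Hspe1 and joins alternating units without a gap. It holds 2 overlapping rows of 3 units of the kind described for Hsph1, whose promoter window holds 1. The promoter window of the Hspd1 start at base 95 holds no match to either paired motif. Read on the strand of Hspd1, the run lies past that start and before the other.

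Hspe1 was at 89.5 and 114 FPKM in wildtype and 135 and 89.6 in heterozygous mice, compared with 72.1 and 69.0 in homozygous mice. Hspd1 was at 51.7 and 55.1 FPKM in wildtype, 53.9 and 49.7 in heterozygous mice and, in homozygous mice, 45.0 and 45.3. Both genes were lower in both homozygous mice than in the other 4, and the homozygous mice lay very close together. The log2 difference of Hspe1 between homozygous and wildtype mice was -0.52 (standard error 0.23, 95% interval -1.09 to 0.06, adjusted p = 0.314, limma). That of Hspd1 was smaller, -0.24, but with a smaller error (standard error 0.11, 95% interval -0.52 to 0.04, adjusted p = 0.325, limma). Hspe1 amounted to 1.73 and 2.06 times Hspd1 in wildtype, 2.51 and 1.80 times in heterozygous mice and, in homozygous mice, 1.60 and 1.52 times (exact permutation test, p = 0.267). Stretches of 100 bases that also occur in transcripts of other genes made up 26.9% of Hspd1, mostly in the processed pseudogene Hspd1-ps3, and 20.4% of Hspe1.

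Hsf1 (ENSMUSG00000022556, chr15:76477422-76501913, plus strand, 13 exons), the transcription factor of the heat shock response, was at 12.9 and 15.2 FPKM in wildtype and 15.9 and 14.8 in heterozygous mice, compared with 14.9 and 12.5 in homozygous mice. All genotypes overlapped. Its log2 difference from wildtype was -0.03 in homozygous (95% interval -0.40 to 0.33, adjusted p = 0.920, limma) and 0.14 in heterozygous mice (95% interval -0.23 to 0.50, adjusted p = 0.929, limma). Hsf1 is activated by trimer formation and phosphorylation of its protein, which RNA levels do not measure.

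In heterozygous against wildtype mice 2 of 10 genes, Hspa1a and Hsph1, had both values above both wildtype values (19.2% of tested genes) and 0 had both below (19.9%). At an unadjusted p-value under 0.05 only Hsph1 was higher, where 4.66% of tested genes were. In homozygous against heterozygous mice 6 of 10 genes had both values lower, the 5 that were also below wildtype and Dnajb1, where 24.1% of tested genes did, and 4 genes were lower at an unadjusted p-value under 0.05, namely Hsp90ab1, Hspa8, Hsph1 and Hspe1, against 4.42% of tested genes. These 2 comparisons share mice with that of homozygous against wildtype and do not add independent values. In the F-test across genotypes 2 genes, Hsp90ab1 and Hsph1, had an unadjusted p-value under 0.05, as did 11.5% of tested genes. The 10 genes added up to 1313 and 1300 FPKM in wildtype, 1453 and 1241 in heterozygous mice and, in homozygous mice, 890 and 983, a sum of which Hsp90ab1 and Hspa8 made up the greater part (exact permutation test, p = 0.200).

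The genes whose profiles over the 6 mice were nearest to that of Hsp90ab1, by the root mean square difference of centred log2 values, were Dnm3 (0.038), AI661453 (0.043), Ipo13 (0.044), Rpl10-ps3 (0.046) and Sytl3 (0.061). None of them is on the lists of chaperones used here. Among the other 9 members Hspa8 was nearest, at 0.107 and rank 108 of the tested genes, followed by Hspe1 at 0.168 and rank 803 and Hspd1 at 0.179 and rank 1043. Hsp90aa1, in contrast, ranked 4084, behind Hsph1 and Dnajb1, and Hspa1a was farthest at rank 10524. With 6 mice, many genes have a like profile, so the ranks describe these mice only.

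Other chaperone classes showed whether the lower values reached further. The endoplasmic reticulum chaperones, which fold secreted proteins, had the lowest median of the classes. All 11 of 11 had both homozygous values below both wildtype values (28.7% of tested genes) and were lower at an unadjusted p-value under 0.05 (9.32%), although 0 passed after adjustment (lowest adjusted p = 0.111, limma). Their median log2 difference was -0.91 in homozygous and -0.18 in heterozygous mice. Hyou1, an exchange factor of the endoplasmic reticulum, was at 137 and 150 FPKM in wildtype and 163 and 129 in heterozygous mice, compared with 74.7 and 81.0 in homozygous mice (log2 difference -0.88 in homozygous against wildtype mice, standard error 0.16, adjusted p = 0.114, limma). The median in homozygous mice was -0.71 without mouse 47 and -1.21 without mouse 49. The sum of the 9 secretory epithelium markers was lower in the same mice with Sbp and overlapped wildtype without it, as given above. Gene by gene, 8 of the 9 had negative log2 differences in homozygous against wildtype mice, with a median of -1.61. Both homozygous values lay below both wildtype values for 5 of the 9 (28.7% of tested genes) and above them for 0 (21.3%). The part of secretory epithelium in the lower values of the endoplasmic reticulum chaperones was not tested.

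The members can be set against their counterparts in the endoplasmic reticulum within each mouse. Hspa8 was 0.439 and 0.346 times the level of Hspa5, the Hsp70 of the endoplasmic reticulum, in wildtype mice, 0.369 and 0.422 times in heterozygous mice and, in homozygous mice, 0.597 and 0.616 times. Hsp90ab1 was 1.48 and 1.44 times the level of Hsp90b1, the Hsp90 of that compartment, in wildtype, 1.72 and 1.42 times in heterozygous mice and, in homozygous mice, 2.29 and 1.78 times. Both homozygous ratios were the highest of the 6 in each case (exact permutation test across the 3 genotypes, p = 0.200 for both). With 15 pairings this test cannot give a p-value under 0.0667, so it cannot decide whether the ratios differ. Hspa5 and Hsp90b1 were chosen here after their values were seen, as the counterparts of these members.

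The small heat shock proteins, which hold unfolded proteins without ATP, went the other way. Of 7 genes 6 had both homozygous values above both wildtype values, as did 21.3% of tested genes, and 5 had an unadjusted p-value under 0.05 there, by which rule 8.65% of tested genes were higher. Their median log2 difference was 0.85 in homozygous and 0.66 in heterozygous mice, and again 0 passed after adjustment (lowest adjusted p = 0.137, limma). Without wildtype mouse 39 the medians were 0.54 and 0.41. Hspb2, a muscle small heat shock protein, was at 4.18 and 5.97 FPKM in wildtype, 11.1 and 10.5 in heterozygous mice and, in homozygous mice, 11.4 and 9.09 (log2 difference 1.01 in homozygous against wildtype mice, standard error 0.21, adjusted p = 0.137, limma). The exception was Hspb1, named after its values were seen. Its level was 138 and 164 FPKM in wildtype and 261 and 153 in heterozygous mice, compared with 118 and 103 in homozygous mice. The 11 skeletal muscle markers were higher in the same mice, with 11 of 11 above wildtype in both mutant genotypes. Of tested genes 21.3% were so in homozygous and 19.2% in heterozygous mice. The part of skeletal muscle in the difference of the small heat shock proteins was not tested.

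**Figure D4:**
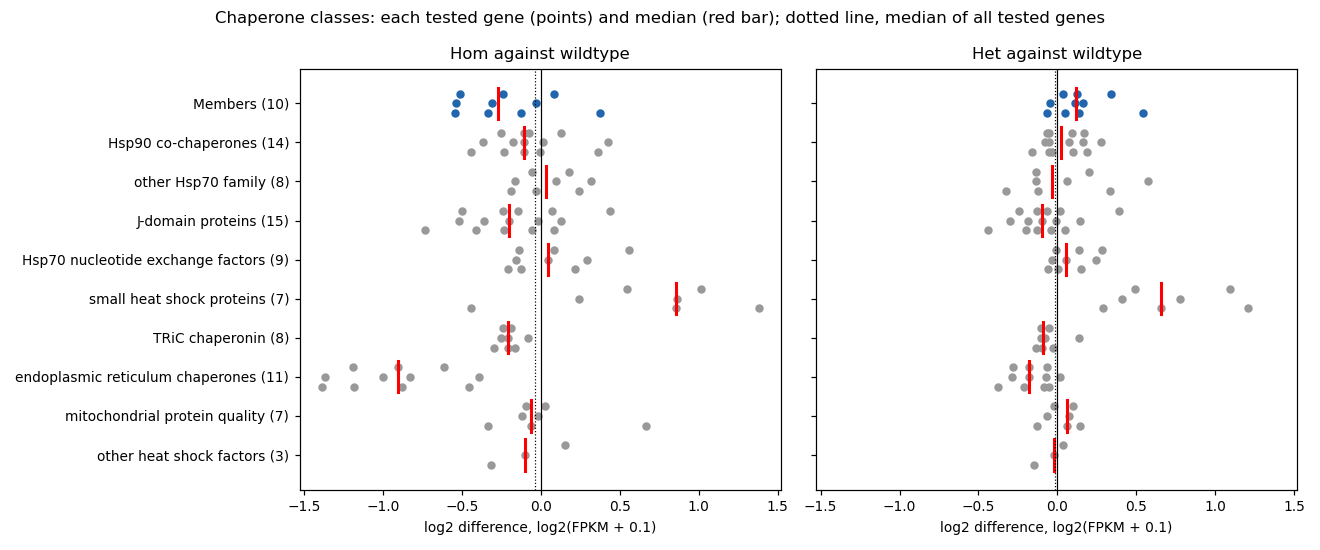
Log2 difference of each tested gene (points) from wildtype in homozygous (left) and heterozygous mice (right), by chaperone class with the number of tested genes in parentheses, the class median as a red bar and the median of all tested genes as a dotted line. The endoplasmic reticulum chaperones lie furthest left in homozygous mice (median -0.91), the small heat shock proteins furthest right (median 0.85), and the members between them (median -0.28).

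The remaining chaperone classes had medians nearer to 0 than the endoplasmic reticulum chaperones and small heat shock proteins in homozygous mice. The medians of TRiC and the J-domain proteins, -0.21 and -0.20, were close to the -0.28 of the members. All of these classes but TRiC had genes on both sides of 0. All 8 subunits of TRiC, the cytosolic barrel that folds actin and tubulin, had negative log2 differences in homozygous mice with a median of -0.21, and 6 of 8 had both homozygous values below wildtype, where 28.7% of tested genes did. After quantile normalization the median was -0.06 with 7 of 8 negative, and without wildtype mouse 41 it was -0.22 with 6 of 8 negative. Cct7 was at 68.9 and 79.0 FPKM in wildtype, 77.4 and 67.4 in heterozygous mice and, in homozygous mice, 61.1 and 58.8 (adjusted p = 0.318 for homozygous against wildtype mice, limma). The 14 Hsp90 co-chaperones had a median of -0.11 in homozygous mice, with 6 of 14 having both values below wildtype (28.7% of tested genes) and 1 above (21.3%). This median turned to 0.0046 without mouse 49 and to 0.04 after quantile normalization, where 5 of 14 were negative. Nudc, a co-chaperone of the dynein pathway, was at 56.6 and 66.0 FPKM in wildtype and 72.6 and 59.3 in heterozygous mice, compared with 47.0 and 47.7 in homozygous mice, below both other genotypes (adjusted p = 0.280, limma).

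For 15 J-domain proteins the median was -0.20, with 7 of 15 below wildtype in both homozygous mice (28.7% of tested genes) and 1 above (21.3%). Dnajb2, a J-domain protein that also binds ubiquitin, was at 48.5 and 47.2 FPKM in wildtype, 52.5 and 46.5 in heterozygous mice and, in homozygous mice, 39.0 and 35.6 (adjusted p = 0.228, limma). For 9 exchange factors of Hsp70 the median was 0.04, with 2 genes below and 2 above wildtype in both homozygous mice, where 28.7% and 21.3% of tested genes were. Bag2 was the clearest of the latter, at 10.5 and 11.9 FPKM in wildtype and 14.7 and 12.6 in heterozygous mice, compared with 18.2 and 14.8 in homozygous mice (adjusted p = 0.191, limma). The exchange factors thus pointed in different directions in homozygous mice, with Bag2 above and Hsph1 below both wildtype values.

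Of 9 other Hsp70 family genes 8 were tested, with a median of 0.03, and Hspa12a lay between 1.57 and 3.04 FPKM with overlapping homozygous and wildtype values. Among 7 genes of mitochondrial protein quality, which share the compartment of Hspd1 and Hspe1, the median was -0.07. The mitochondrial protease Htra2 was at 11.8 and 11.9 FPKM in wildtype, 12.6 and 13.6 in heterozygous mice and, in homozygous mice, 24.9 and 14.3, the highest value being that of mouse 47 (adjusted p = 0.264, limma). Of 4 other heat shock factors 3 were tested, with a median of -0.10, and Hsf4 lay between 1.33 and 1.88 FPKM. No gene of these classes passed the test in any comparison.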

How the data were processed

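Total RNA from snap-frozen prostates was made into stranded mRNA libraries. Per the labels, the authors aligned reads to mm10 (GRCm38) with HISAT and quantified genes with Cufflinks and Cuffnorm, whose versions are not given in the sources used here, and the deposited values are FPKM per gene. Fragment counts were not used here, so sampling errors of single values are unknown.

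Genes averaging at least 1 FPKM over the 6 mice, 13818 in all, were tested on log2(FPKM + 0.1) by limma 3.58.1 under R 4.3.3 (3 genotypes, intensity trend, moderated F-test and contrasts, Benjamini-Hochberg adjustment over all tested genes, threshold 0.05). The pseudocount of 0.1 makes differences of low genes smaller than they are. Ratios within a mouse were compared by an exact permutation test of the F statistic across the 3 genotypes. Its smallest possible p-value is 0.0667, so no ratio could pass 0.05. The labels give 1 mouse per sample. The fit was tested on simulated data.

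The members and gene lists were chosen with earlier results of these data known. Named genes were the members, the gene of each chaperone class with the smallest F-test p-value, and the 5 nearest to Hsp90ab1. Positions and transcript stretches came from GENCODE M21. RefSeq promoter windows (250 bases before to 50 after the start, GRCm38.p6) matched 6 of 10 members, and Hsp90ab1, Hsp90aa1, Hspa8 and Hsf1 were not matched. Alternatives were pseudocounts of 1 and 0.01, no filter, a mean of at least 5 FPKM, median scaling, quantile normalization, no trend, Hspa1a and Hspa1b added up, and leaving out each mouse.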

Additional observations from a re-analysis of the deposited data

Results flagged for a closer look

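Hsph1 differed in direction between the mutant genotypes. Both heterozygous mice, at 30.7 and 22.2 FPKM, lay above both wildtype mice, at 17.8 and 17.9 FPKM, and both homozygous mice, at 14.3 and 14.0 FPKM, lay below them. The log2 difference between homozygous and heterozygous mice was -0.88 (adjusted p = 0.707, limma), so it did not pass the test. Opposite sides of wildtype were taken by 196 of 13818 tested genes (1.42%), and Hsph1 was the only member among them.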

How the results depend on the processing

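No member passed the adjusted threshold under any alternative, which are 0 calls by limma over the F-test and 3 contrasts in each. Of the members' values under the alternatives, 375 kept their sign and side of the threshold and 18 turned their sign. Apart from leaving out mice, the turned value was Hsf1 in homozygous against wildtype mice, 0.0153 after quantile normalization. Leaving out each mouse gave, for homozygous against wildtype, -0.0828 to 0.252 (Hspa1b), -0.260 to 0.0115 (Dnajb1) and -0.158 to 0.0894 (Hsf1). For heterozygous against wildtype it gave -0.0569 to 0.152 (Hsp90ab1), -0.143 to 0.469 (Hsp90aa1), -0.188 to 0.0584 (Hspa8), -0.130 to 0.205 (Hspa1b), -0.0244 to 0.247 (Dnajb1), -0.103 to 0.0134 (Hspd1) and -0.171 to 0.424 (Hspe1), and for homozygous against heterozygous -0.221 to 0.287 (Hspa1a) and -0.0501 to 0.144 (Hspa1b). The log2 ratio of Hsp90ab1 to Hsp90aa1 in homozygous against wildtype mice, -0.23, was 0.13 without mouse 47 and -0.58 without mouse 49. Quantile normalization brought Hsp90ab1 and Hspa8 in homozygous against wildtype mice from -0.54 each to -0.35 and -0.38.

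The number of all genes past the threshold depended more on the settings. In the F-test it was 14, and 3 with no filter, 9 with no trend, 4 after quantile normalization and 0 to 9 without each mouse. For homozygous against wildtype it was 53, and 4 with no filter, 23 with no trend and 4 to 96 without each mouse, where mouse 49 gave the highest. For heterozygous against wildtype it was 0, and 0 to 1 without each mouse. For homozygous against heterozygous it was 2, and 1 with a mean FPKM of at least 5 or a pseudocount of 0.01, and 0 to 40 without each mouse. The cause of these shifts was not tested. A lone mouse left in a genotype is assumed to vary like the others. Counts with a homozygous mouse left out and the marker sum without Sbp were added after seeing the data. No paired analysis was possible because the animals' numbers are all different and the labels name no pairing.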
